A study of Homo sapiens with 4 samples.

Results

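Chromosome 15 held 3593 of the 125986 open-chromatin regions in the authors' deposited table, and every region of the table on that chromosome is described here. The chromosome was chosen on the deposited log2 fold changes themselves, because its median was the highest of the 22 autosomes, so those values are a description and carry no test. A375 is an established human melanoma cell line, and open chromatin was mapped by ATAC-seq, which tags DNA that the Tn5 transposase can reach. For 48 h the cells received either 1 mM of the medium-chain fatty acid octanoate or isopropanol, its solvent, here called vehicle, and each group had 2 libraries. The table compares octanoate with vehicle and has 0 columns for single libraries, so the spread between replicates of any chromosome-wide value was not measured, and the depth of each library is unknown.

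A fold change in this report is octanoate over vehicle on the log2 scale, as the authors fitted it with DESeq2. The authors' adjustment for multiple testing covered 11185 regions, those whose mean reached 63.8 normalized reads; these are called tested regions, and 321 of these lay on chromosome 15. The other regions of the chromosome are weaker and their single values are imprecise: the median standard error was 0.22 over its tested regions and 0.59 over all of its regions. Each of the 7 melanocyte-lineage markers examined (MITF, PMEL, TYR, DCT, MLANA, SOX10 and S100B) had at least 1 listed region, and MITF alone had a tested one.

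Chromosome 15 is acrocentric: its centromere lies near one end, its short arm carries ribosomal RNA gene repeats, and its ordinary genes lie on the long arm. The part next to the centromere holds an imprinted domain, in which several genes are read from the copy of one parent only, followed by a cluster of GABA-A receptor genes and by OCA2, which encodes a melanosome membrane protein needed for pigment. Farther along lie genes of the melanosome transport machinery, growth factor receptors and, close to the end of the arm, the retinaldehyde dehydrogenase gene ALDH1A3. In general, regions at gene starts are promoters open in many cell types, and regions away from starts include enhancers, which differ more between cell types and states.

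Promoter sequences are shown for 5 genes because results below turn on the regions over them. ALDH1A3 is the gene that holds the region with the lowest adjusted p on the chromosome, ADAMTS17 and ISG20 had the highest fold changes among tested regions of at least median mean that cover a whole promoter, and GABPB1 and TLE3 had the lowest. Each run is the 250 bases before the RefSeq start (GRCh38.p14), 5′ to 3′ on the gene's strand. Capitals mark 3 motifs, searched on both strands. The GC box, bound by factors of the SP family, is GGGCGG, and overlapping copies are joined. The box bound by the factor NF-Y is CCAAT. The E-box, bound by many helix-loop-helix factors, MITF among them, is spelled CACGTG here.
ALDH1A3 (chr15:100879581-100879830, plus strand): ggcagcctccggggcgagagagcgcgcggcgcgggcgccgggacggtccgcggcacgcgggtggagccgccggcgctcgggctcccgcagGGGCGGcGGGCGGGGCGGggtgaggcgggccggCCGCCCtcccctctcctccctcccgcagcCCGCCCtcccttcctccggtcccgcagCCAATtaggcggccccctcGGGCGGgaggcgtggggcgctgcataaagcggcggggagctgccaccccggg
ADAMTS17 (chr15:100341976-100342225, minus strand): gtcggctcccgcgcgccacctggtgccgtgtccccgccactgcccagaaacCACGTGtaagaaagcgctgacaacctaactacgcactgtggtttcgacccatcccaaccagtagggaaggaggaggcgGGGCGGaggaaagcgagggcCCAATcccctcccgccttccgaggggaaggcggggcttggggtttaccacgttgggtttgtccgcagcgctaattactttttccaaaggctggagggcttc
ISG20 (chr15:88638766-88639015, plus strand): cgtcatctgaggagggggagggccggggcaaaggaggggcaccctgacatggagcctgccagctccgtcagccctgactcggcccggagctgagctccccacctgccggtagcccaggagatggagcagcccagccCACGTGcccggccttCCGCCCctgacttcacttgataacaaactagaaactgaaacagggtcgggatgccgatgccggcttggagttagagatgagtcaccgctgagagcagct
GABPB1 (chr15:50355199-50355448, minus strand): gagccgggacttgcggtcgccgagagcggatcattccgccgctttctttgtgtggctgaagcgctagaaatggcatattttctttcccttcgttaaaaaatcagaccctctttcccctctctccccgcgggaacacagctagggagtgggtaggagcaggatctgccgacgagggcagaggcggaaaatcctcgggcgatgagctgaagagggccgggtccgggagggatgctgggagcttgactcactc
TLE3 (chr15:70097918-70098167, minus strand): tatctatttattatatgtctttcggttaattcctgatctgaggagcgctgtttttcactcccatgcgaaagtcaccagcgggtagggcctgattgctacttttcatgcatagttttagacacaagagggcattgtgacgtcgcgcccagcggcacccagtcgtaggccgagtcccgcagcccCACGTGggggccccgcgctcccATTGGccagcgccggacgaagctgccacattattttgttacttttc

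The ALDH1A3 promoter held 6 GC boxes, 1 CCAAT box and 38 CG dinucleotides, and 82.4% of its bases were G or C. The promoters of ADAMTS17, which encodes a secreted metalloprotease, and ISG20, an interferon-induced exonuclease gene, held 1 GC box and 1 E-box each, and that of ADAMTS17 also 1 CCAAT box. TLE3, a transcriptional co-repressor gene, had 1 E-box, 1 CCAAT box and 0 GC boxes, and GABPB1, which encodes a subunit of the GABP transcription factor, had 0 of all 3 motifs. These are matches of letters only. Of the 334 chromosome 15 promoters that lay wholly inside a listed region, 71.9% held a GC box, 36.5% a CCAAT box and 7.19% an E-box. Over all 15100 autosomal protein-coding promoters in the RefSeq table these shares were 56.3%, 34.1% and 7.81%, and over the 8852 covered promoters of the other autosomes they were 73.0%, 36.4% and 9.34%.

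The median log2 fold change of all chromosome 15 regions was 0.31 in the authors' deposited table, against 0.23 for the 118356 regions of the other autosomes, a difference of 0.085. The autosomes next in order were chromosome 10 at 0.26, chromosome 20 at 0.26 and chromosome 1 at 0.25, and the lowest were chromosomes 4 and 18, both at 0.16. The other 21 medians had an SD of 0.028 between chromosomes. In all, 2870 chromosome 15 regions lay above 0, or 79.9%, against 71.9% on the other autosomes.

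The whole distribution was displaced, and its lower side more than its upper side. The 10th percentile was -0.21 on chromosome 15 and -0.37 on the other autosomes, 0.16 apart. The 90th percentile was 0.90 against 0.83, which is 0.062 apart. The gap was thus wider among regions below 0 than among the highest ones, and the chromosome's SD over regions, 0.49, was below the 0.52 of the other autosomes. Single autosomes matched it in the tails. The 10th percentile was higher on chromosome 19, at -0.20, and the 90th on chromosome 22, at 0.92. Chromosomes 17, 19 and 20 had smaller SDs, of 0.46, 0.43 and 0.44, and 5th percentiles of -0.44, -0.39 and -0.44, against -0.45 on chromosome 15. Among tested regions the median was 0.25 on chromosome 15 and 0.18 on the other autosomes, and here chromosome 19 stood higher, at 0.27. Of the tested regions on chromosome 15, 94.1% were above 0, against 85.3% elsewhere.

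Summed over regions, the levels implied by the mean and fold change of each region gave chromosome 15 a share of 2.79% of the nuclear signal with vehicle and 2.93% with octanoate. The log2 ratio of its summed levels was 0.29, ahead of chromosome 20 at 0.25, and the lowest was chromosome 18 at 0.14. These sums weigh strong regions most, where the median over regions weighs all alike. Copies of the chromosome per cell were not measured, and in read counts more DNA copies and more accessible DNA per copy cannot be told apart.

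**Figure D1:**
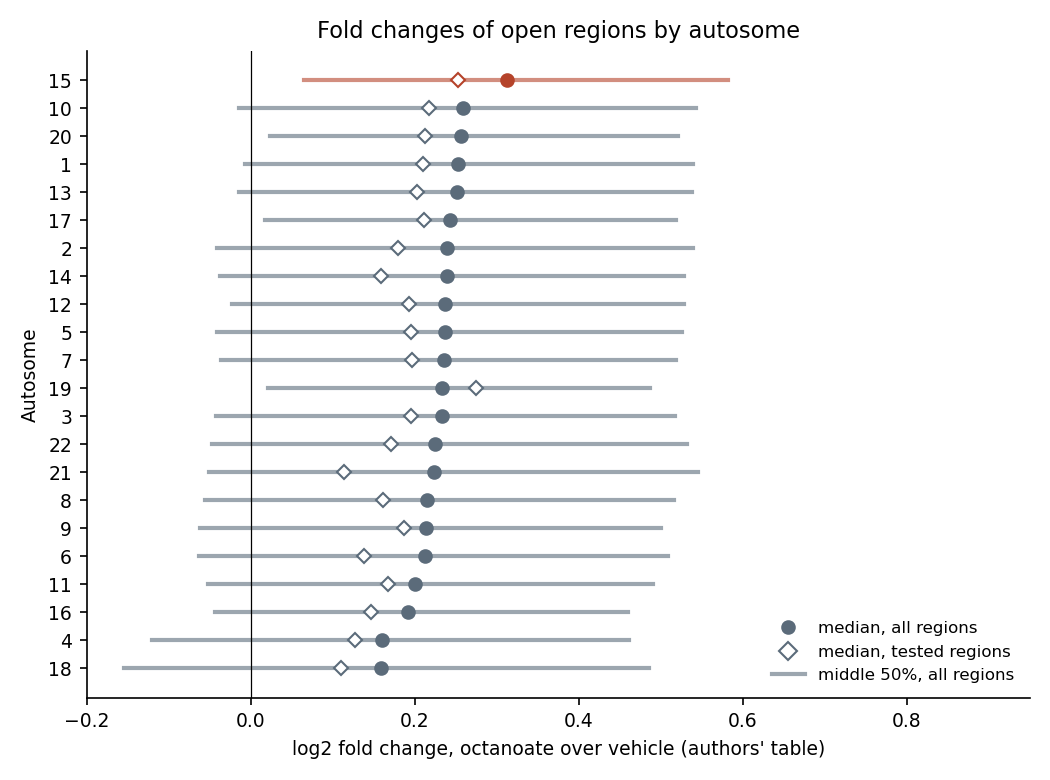
Median log2 fold change of each autosome over all regions (filled circles) and over tested regions (open diamonds), with bars for the middle 50% of all regions; no error between replicates can be drawn. Chromosome 15 has the highest filled circle, at 0.31, while chromosome 19 has the highest diamond, at 0.27.

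Few single regions passed the authors' test. Of the 321 tested on chromosome 15, 2 were below an adjusted p of 0.05, or 0.623%, and both were higher with octanoate; over the whole table the share was 1.02%. The count rests on the contrast by which the chromosome was chosen, and nothing is read from it. At an unadjusted p under 0.05, 62 tested regions of chromosome 15 were higher, or 19.3%, against 14.8% over the table. Lower at that level were 0 on chromosome 15 and 0.107% over the table.

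Both called regions lay in the last 2 Mb of the chromosome. ALDH1A3 oxidizes retinaldehyde to retinoic acid, a signalling molecule made from vitamin A. A region inside ALDH1A3 (chr15:100890832-100892240, 11 kb from its start) rose by 0.76 (log2) in the authors' deposited table (standard error 0.19, adjusted p 0.0168). Its mean of 122.6 normalized reads implies 90.9 with vehicle and 154.3 with octanoate, or 1.70-fold. The second region (chr15:100720716-100723872) lay outside protein-coding genes, 69.0 kb from ASB7, a gene for a substrate adaptor of ubiquitin ligases. In the authors' deposited table it rose by 0.59 (standard error 0.15, adjusted p 0.0202), and its mean of 195.4 implies 155.9 with vehicle and 234.9 with octanoate.

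Between the end of ASB7 and the end of ALDH1A3 the table listed 20 regions, of which 15 were above 0, with a median of 0.53. The 5 tested regions among them ran from 0.23 to 0.76, and all were above 0. The region over the ALDH1A3 promoter shown above (chr15:100879077-100881014), which also overlaps the gene model LOC124903575, had a log2 fold change of 0.36 with a standard error of 0.22 in the authors' deposited table, and did not pass the test (adjusted p 0.440). After the median of the tested regions was subtracted from every fold change, the adjusted p was 0.471 for the region inside ALDH1A3 and 0.805 for the one near ASB7, so neither call held relative to the rest of the genome.

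A further 10 regions of chromosome 15 had an adjusted p between 0.05 and 0.1, all with positive fold changes. That made 12 below 0.1, or 3.74% of those tested, against 2.98% over the table. The values in the authors' deposited table included 0.81 (standard error 0.24, adjusted p 0.0537) for a region 401.1 kb from MCTP2, and 0.80 (standard error 0.25, adjusted p 0.0758) inside OCA2. A region inside MYO1E, which encodes a class I myosin of the cell cortex, had 0.68 (standard error 0.20, adjusted p 0.0552) in the authors' deposited table. One region 51.7 kb from NR2F2, an orphan nuclear receptor gene, had 0.72, and one inside GABRG3, a GABA-A receptor subunit gene, had 0.70. ISG20 held a pair of such regions, at 0.50 over its start and 0.60 inside the gene. ACAN, which encodes the cartilage proteoglycan aggrecan, had one at 0.55 about 9.96 kb away. The rest lay inside THSD4, at 0.69, and 95.6 kb from CHD2, a chromatin remodeller gene, at 0.53.

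At the other end of the order, the tested regions with the lowest fold changes and at least median mean lay mostly at gene starts. In the authors' deposited table they were GABPB1 at -0.062 and TLE3 at -0.040, then TCF12 at 0.0093, FBN1 at 0.017 and AFG2B at 0.020, all at starts, and a region 17.5 kb from AEN at -0.0082. Their standard errors were 0.18 to 0.21, so each value lay within 1 standard error of 0. Of these 6 lowest regions 5 lay at a start, and of the 6 highest picked in the same way 0 did. Starts held 187 of the 321 tested regions, or 58.3%, and nothing is read from these counts. Only 19 of the 321 tested regions were below 0, and the lowest was -0.20.

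**Figure D2:**
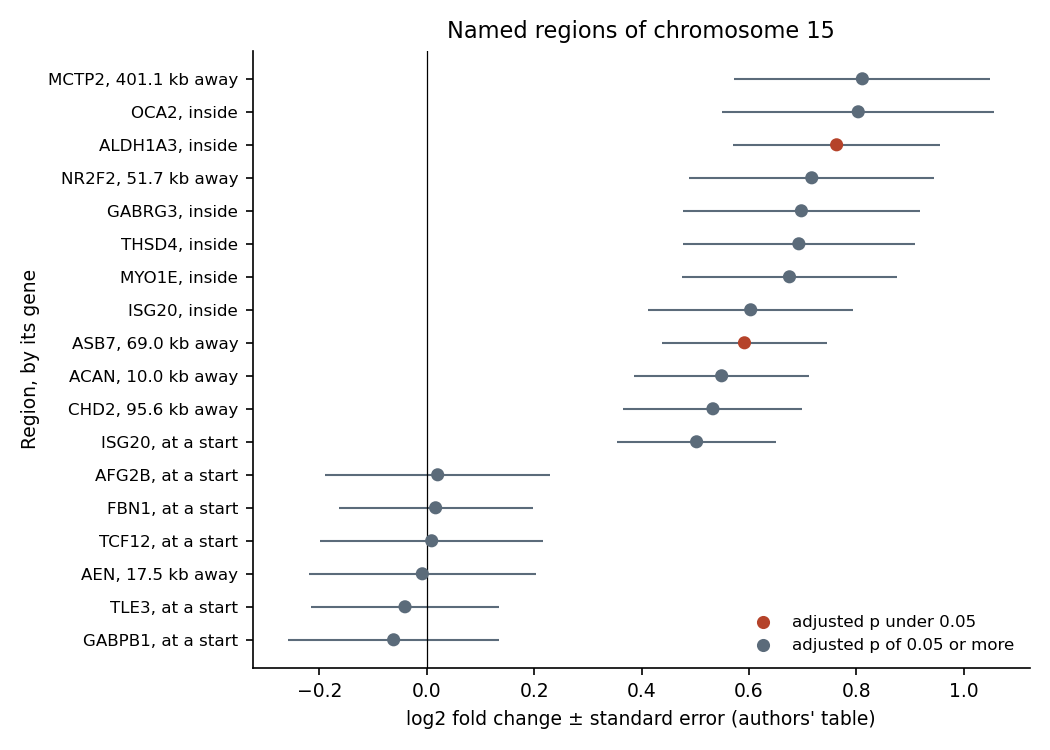
Log2 fold changes with the authors' standard errors for the regions of chromosome 15 named in the text, each labelled by its gene; the called pair is in red. The 12 upper regions lie between 0.50 and 0.81, and the 6 lower ones lie within 1 standard error of 0.

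Along the chromosome, the displacement was not confined to 1 stretch. Each of the 17 windows of 5 Mb had a median above 0.23, the median of all autosomal regions, while 42.9% of the 543 windows on the other autosomes did. The window medians of chromosome 15 ran from 0.233 to 0.491 with an SD of 0.080, and those elsewhere from -0.084 to 0.56 with an SD of 0.11. No other autosome had all of its windows above that level: chromosome 20 came nearest with 8 of 13. The windows of chromosome 15 were therefore not the highest of the genome, and its lowest lay only just above the autosomal median. Lower windows appeared where the edges were moved: with windows shifted by 2.5 Mb, 15 of 17 were above it (88.2%, against 45.2% elsewhere). In smaller steps, 60 of 78 steps of 1 Mb were above the autosomal median (76.9%, against 45.4% elsewhere).

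The highest medians belonged to the windows from 25 to 30 Mb, at 0.49 over 170 regions, and from 20 to 25 Mb, at 0.44 over 97 regions. The third was the last window, from 100 Mb to the end of the list, at 0.43 over 109 regions. Only the last of these held called regions. Among tested regions, all 12 between 20 and 30 Mb were above 0, from 0.16 to 0.80, and all 21 from 100 Mb on were, from 0.12 to 0.76. Reads from near-identical copies, such as the golgin genes next to the centromere, cannot be placed with certainty, and how the authors treated them is not given in the sources used here; their part in these windows was not tested.

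The lowest windows were 40 to 45 Mb at 0.233, 35 to 40 Mb at 0.235 and 65 to 70 Mb at 0.236, close to the autosomal median. The window from 40 to 45 Mb is the most gene-dense of the chromosome, with 96 protein-coding genes, and 37.1% of its regions lay at gene starts, against 11.7% over the chromosome. Without regions at starts its median was 0.33. That step raised the window from 35 to 40 Mb, where 5.43% of regions are at starts, only to 0.245. Without regions at starts the other autosomes had a median of 0.250, so on that measure this window lay just below them.

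**Figure D3:**
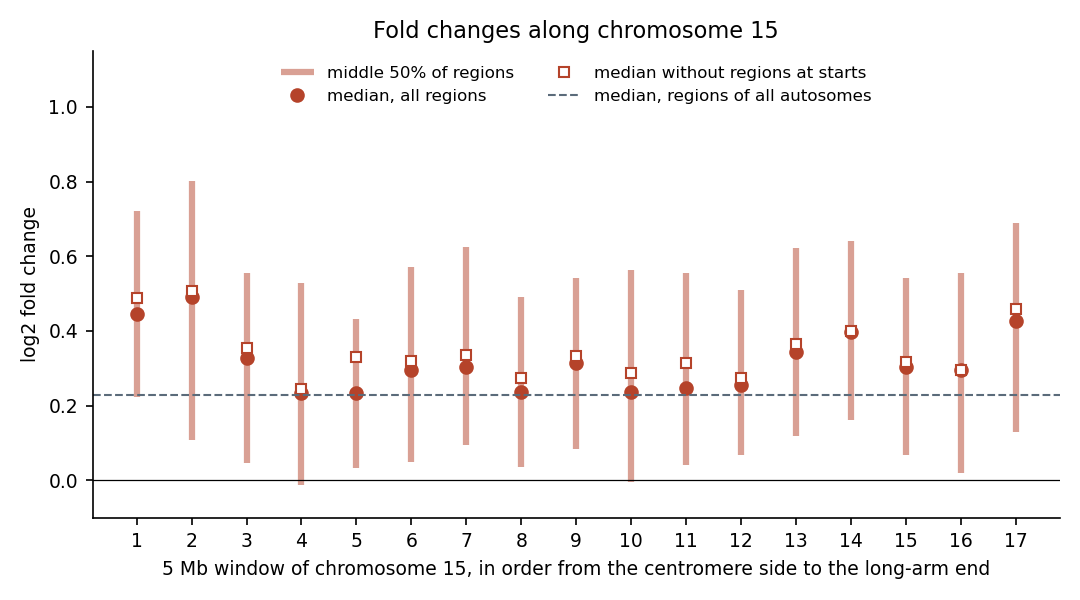
Median log2 fold change in the 17 windows of 5 Mb along chromosome 15, numbered from the centromere side, with bars for the middle 50% of regions and open squares for the median without regions at gene starts. The first pair of windows and the last are highest, and every median over all regions lies at or above the dashed autosomal median of 0.23. That line includes regions at starts. Without them the other autosomes had 0.250, the like value for the open squares.

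Acrocentric chromosomes share a gene-poor, repeat-rich border next to the centromere. In the first 10 Mb of listed regions, chromosome 15 had a median of 0.48 over 262 regions, chromosome 21 had 0.43 over 88 and chromosome 13 had 0.36 over 330. The other acrocentric chromosomes were lower, with 0.27 on chromosome 22 and 0.13 on chromosome 14, so a high start was not shared by all of them. Nor was it limited to them. Of the chromosomes that are not acrocentric, chromosome 1 had 0.43 over 749 regions and chromosome 2 had 0.36, while chromosome 19 was lowest at 0.059. In the last 5 Mb the chromosome 15 median was 0.37, the 14th of 22 autosomes in order, and 0.065 above the rest of the chromosome. With the first 10 Mb and last 5 Mb set aside, chromosome 15 had 0.29, still above chromosome 20 at 0.26 and the lowest, chromosome 18, at 0.13.

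By position relative to protein-coding genes, chromosome 15 was above the other autosomes in all 7 classes. Within 1 kb of a gene start the median was 0.19 over 421 regions, against 0.13 elsewhere. Inside genes, away from both ends, it was 0.35 over 1493 regions against 0.24, the widest gap at 0.11. Regions within 1 kb of a 3′ end had 0.35 against 0.25, and those up to 10 kb from a gene had 0.36 against 0.27. Intergenic regions at 10 to 50 kb had 0.33 against 0.27, at 50 to 200 kb 0.33 against 0.26, and beyond 200 kb 0.32 against 0.24.

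At starts, inside genes and up to 10 kb from genes, 0 of the other 21 autosomes had a median as high as that of chromosome 15. As high or higher were 2 of 18 at 3′ ends, 2 of 21 at 10 to 50 kb, 3 of 21 at 50 to 200 kb and 5 of 21 beyond 200 kb. Regions at starts lay 0.15 below the rest of chromosome 15 and 0.12 below the rest of the other autosomes. Among tested regions the gap at 10 to 50 kb turned to -0.075, on 18 chromosome 15 regions, the gap at 50 to 200 kb was 0.0075, on 22, and that beyond 200 kb was 0.033, on 16. Over regions at or above the median mean of the table, the gap was 0.019 at 10 to 50 kb and 0.027 beyond 200 kb. Gene starts were taken from RefSeq with their strand, except that a gene without a listed start, which includes every gene of chromosome 8, counted with both ends.

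**Figure D4:**
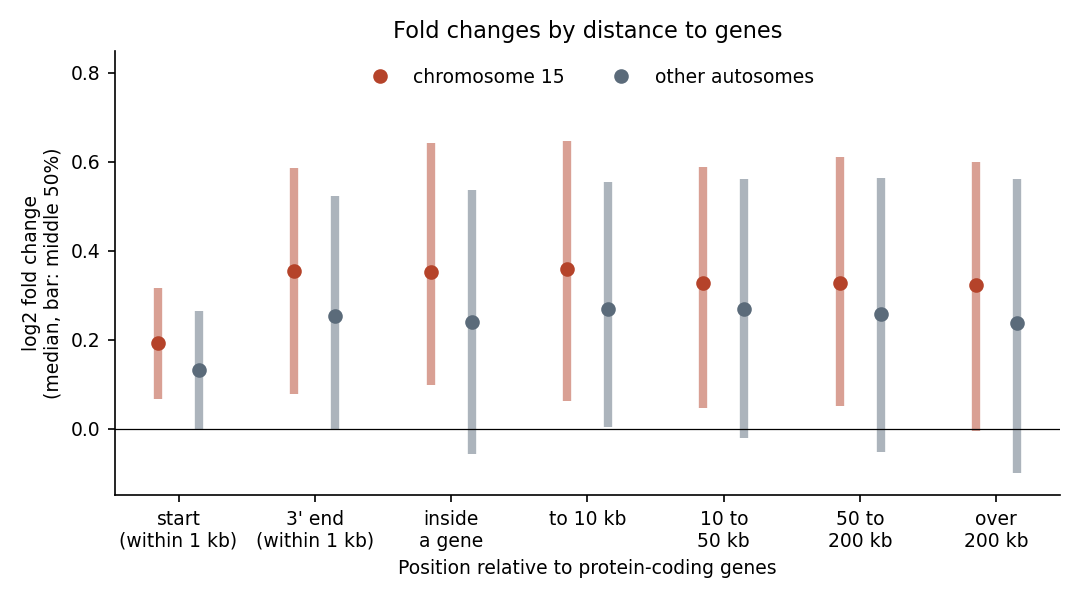
Median log2 fold change by position relative to protein-coding genes for chromosome 15 and for the other autosomes, with bars for the middle 50% of regions. Chromosome 15 is higher in each class, by 0.060 at starts and by 0.11 inside genes, and starts are lowest on both sides.

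The gap was also present at every level of signal. In each of 10 equal classes of mean normalized reads, chromosome 15 had a higher median than the other autosomes together, by 0.034 to 0.14. With classes numbered from the weakest, single autosomes were as high or higher in class 1 (3 of 21), class 3 (1), class 4 (2), class 7 (1) and class 10 (1). Chromosome 15 was chosen for its median over these same regions, so the gaps by class are a description. In the weakest class, with means up to 4.59, the medians were 0.44 and 0.32, and in the strongest, from 59.0 upward, they were 0.25 and 0.18. Weak regions thus had the larger median fold changes on both sides. With the other autosomes weighted to the signal classes of chromosome 15 the difference was 0.086, and weighted to its classes of gene position it was 0.087.

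In properties the choice did not use, chromosome 15 was not at either end of the 22 autosomes. Its median mean of 13 normalized reads ranked 7th of 22, and its median region width of 446 bp ranked 5th. It had 43.8 regions and 7.52 protein-coding genes per Mb, both 9th in order. The share of regions that were tested, 8.93%, was 11th, and the share at gene starts, 11.7%, was 9th. Regions inside genes made up 41.6%, 6th in order, and those over 200 kb from a gene 9.71%, 17th in order. Covered promoters had a median of 67.8% G and C on chromosome 15 and 66.4% elsewhere. Promoters at or above 66.4% had a median fold change of 0.22 on chromosome 15 and 0.14 on the others, and those below it 0.17 and 0.13. GC content of regions away from starts was not measured here.

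Of the protein-coding genes on chromosome 15, 46 held 10 or more listed regions in their bodies. All 46 had a median above 0, as did 1286 of 1406 such genes elsewhere, and 40 had one above the autosomal region median of 0.23, or 87.0%, against 46.7% elsewhere. Overlapping genes share regions, and most of these regions are weak.

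OCA2 had the highest median of these genes, 0.80 over 12 regions, 11 of them above 0, with a lowest value of -0.027 and a highest of 1.29. It exceeded the medians of 99.9% of the 1406 genes elsewhere. AGBL1, which encodes a carboxypeptidase that trims glutamates from tubulin, had 0.74 over 35 regions. In AGBL1 34 of 35 regions were above 0, from -0.42 to 2.01, and the median region had a mean of only 6.14 normalized reads and a standard error of 0.90. Its tested pair of regions had lower values, 0.43 and 0.41 in the authors' deposited table, with adjusted p of 0.166 and 0.313, so the high median of AGBL1 rests on weak regions.

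OTUD7A, a deubiquitinase gene, followed with 0.61 over 13 regions, and MYO5C, a class V myosin gene, with 0.55 over 11. RORA, the gene of a nuclear receptor of the circadian clock, had all 29 regions above 0, from 0.023 to 1.31 with a median of 0.42, and PDE8A, a cyclic AMP phosphodiesterase gene, all 13. Among the largest sets, IGF1R, which encodes the insulin-like growth factor receptor, had a median of 0.28 over 37 regions. Its 9 tested regions were all above 0, from 0.13 to 0.55, and 0 had an adjusted p under 0.05. APBA2, which encodes a neuronal adaptor protein, was lowest with 0.099 over 13 regions, 0 of them tested.

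**Figure D5:**
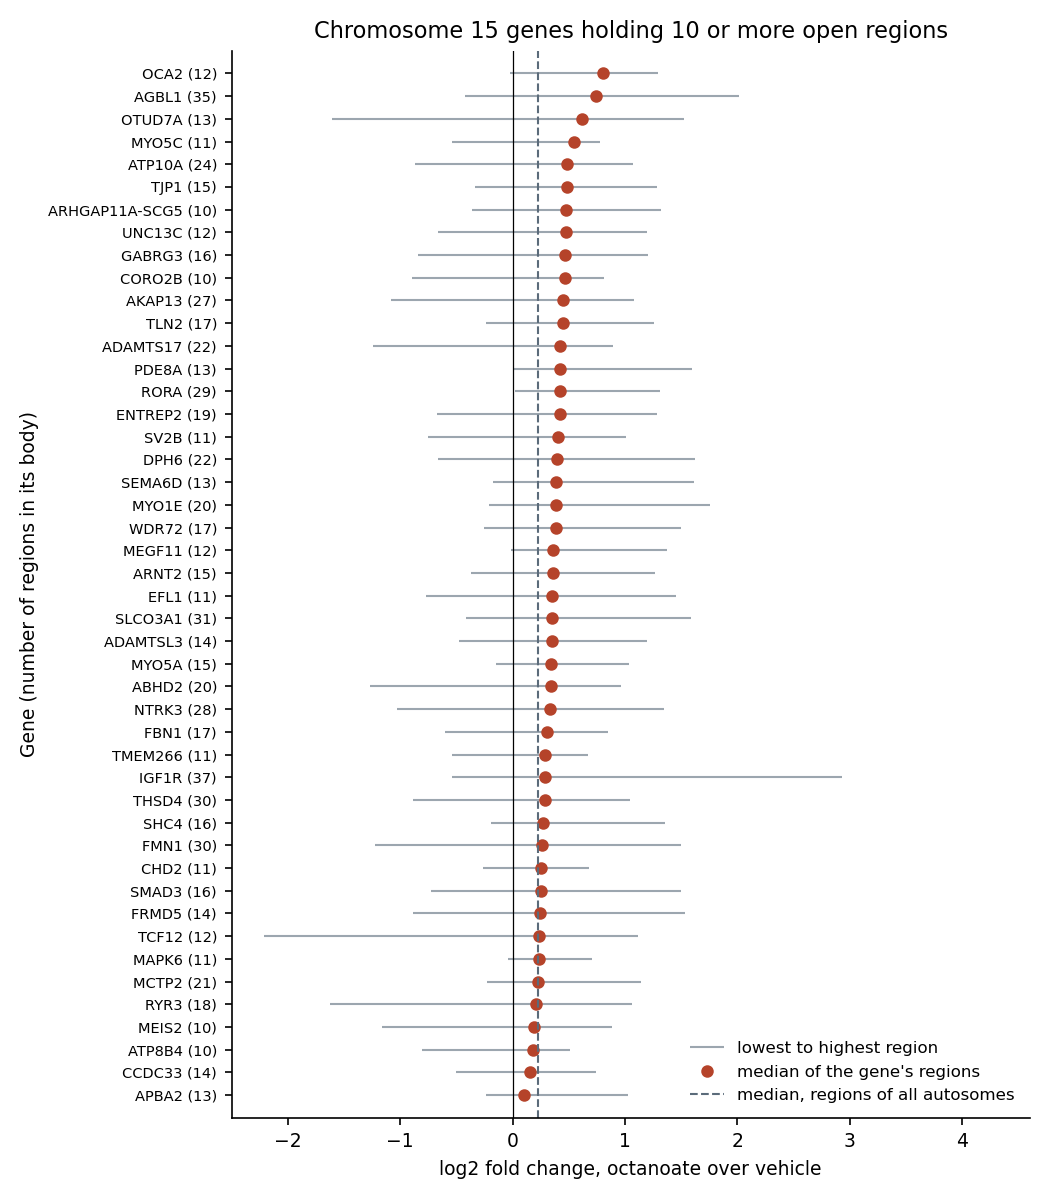
Chromosome 15 genes with 10 or more listed regions in their bodies, ordered by the median log2 fold change (circles), with lines from the lowest to the highest region and the number of regions in brackets. Every circle lies above 0, as did those of 1286 of 1406 genes elsewhere, from 0.099 for APBA2 to 0.80 for OCA2, and single regions spread widely around it.

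The following gene lists were described by counts, beside 79.9% of regions above 0 and a median of 0.31 for the whole chromosome. Called regions made up 1.02% of all tested regions in the table, so lists with few tested regions could hold 0 without standing apart, and nothing is read from those counts. A region belongs here to the gene it overlaps or lies nearest to. The imprinted genes next to the centromere, chosen as a list, had 80 regions at 7 of 8 genes, 72 of them above 0, with a median of 0.50. All regions from 20 to 30 Mb together were nearly as high, with a median of 0.48 and 229 of 267 above 0. ATP10A held 43 of the 80, counting regions outside genes that lie nearest to it. UBE3A, a ubiquitin ligase gene read from the maternal copy in neurons, had 13 of 13 regions above 0, and its promoter region had 0.39 with a standard error of 0.16 (adjusted p 0.217) in the authors' deposited table. The start of SNURF, in the imprinting centre, had 0.43 with a standard error of 0.19 (adjusted p 0.242) in the authors' deposited table. A region 216.8 kb from ATP10A, a phospholipid flippase gene and the nearest one, had 0.24 with a standard error of 0.21. None of the 3 tested regions passed.

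Of the neighbouring GABA-A receptor genes, GABRG3 had 18 regions, 15 of them above 0, with a median of 0.51 and its strongest region at 0.70 inside the gene (standard error 0.22). GABRA5 had 5 regions, 3 of them above 0, and its strongest, at the start, had 0.14 with a standard error of 0.41. The neuronal list, which includes these, had a median of 0.38 over 210 regions, 163 of them above 0 (77.6%). Of its 7 tested regions, 0 were called. NTRK3, the neurotrophin-3 receptor gene, had 43 of 60 regions above 0 with a median of 0.33.

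Pigment and melanosome genes had 72 regions with a median of 0.38, 58 of them above 0, and 0 of 5 tested regions were called. The median was 0.22 over the tested regions, against 0.25 for all tested regions of the chromosome, and also 0.22 over the strongest region of each gene. The strongest region of MYO5A, the motor that carries melanosomes, lay at its start and had 0.22 with a standard error of 0.20. RAB27A, the GTPase that recruits that motor, had 0.14 (standard error 0.21) inside the gene, and BLOC1S6, a melanosome biogenesis gene, had -0.0052 (standard error 0.22) at its start. TRPM1, a melanocyte ion channel gene, had 10 of 11 regions above 0 with a median of 0.36. Whether OCA2 differed from the other pigment genes was not tested.

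The fatty acid and lipid list had 65 regions at 12 of 14 genes with a median of 0.40, 53 of them above 0, and 0 of 4 tested regions were called. SQOR, a mitochondrial sulfide oxidase gene, had 0.44 (standard error 0.23) and IDH2, the mitochondrial isocitrate dehydrogenase gene, 0.31 (standard error 0.23). LIPC, the hepatic lipase gene, had 0.21 (standard error 0.22) at a region 99.3 kb from a start. ETFA, which passes electrons from fatty acid oxidation to the respiratory chain, had 3 regions from -0.88 to 0.68. PLIN1, a lipid droplet coat gene, had 1 region, at 0.21.

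Growth and survival genes had 232 regions at 14 of 16 genes with a median of 0.31, 185 of them above 0, equal to the chromosome as a whole. The strongest regions lay at starts: 0.24 at IGF1R, 0.12 at SPRED1, a RAS pathway inhibitor gene, and 0.24 at SMAD6, with standard errors of 0.14, 0.18 and 0.20. MAP2K1, the MEK1 gene downstream of BRAF, had 0 regions of its own. The region over its start also overlaps TIPIN, was counted there and had 0.29 with a standard error of 0.27. BCL2A1, a survival gene, had 6 of 7 regions above 0 with a median of 0.47. Called regions in this list numbered 0 of 18 tested.

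Transcription factor genes had 268 regions with a lower median, 0.25, and 194 of them above 0. NR2F2 accounts for 102 of these regions, with a median of 0.17, and its start region, with a mean of 330.1 normalized reads, had 0.22 (standard error 0.13, adjusted p 0.395) in the authors' deposited table. The start of KLF13 had 0.34 with a standard error of 0.15, and 0 of the 18 tested regions were called. Retinoid genes had 24 regions with a median of 0.22, 16 of them above 0; the 1 tested region is the called one inside ALDH1A3, since the tested region over its promoter, at 0.36, was counted for LOC124903575. In the same list STRA6, the retinol transporter gene, had a median of -0.085.

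Translation and housekeeping genes had 63 regions with a median of 0.30, 55 of them above 0, and their strongest regions, at the starts of PKM, RSL24D1 and EIF3J, had 0.16, 0.25 and 0.20. Over the strongest region of each gene in this list the median was 0.065. Matrix and adhesion genes had 134 regions with a median of 0.41, 114 of them above 0. This list holds the ADAMTS17 start shown above, at 0.52 (standard error 0.19, adjusted p 0.134) in the authors' deposited table, and the FBN1 start at 0.017. Of their tested regions, 0 of 7 and 0 of 13 were called.

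Because no value per library was used, whether 1 library carries the displacement of chromosome 15 was not measured.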

How the data were processed

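ATAC-seq of A375 cells was compared between 2 octanoate and 2 vehicle libraries, grouped by sample title. The submitters' processing notes name Trim Galore, cutadapt, FastQC, Bowtie2, Picard, MACS2, featureCounts, DESeq2 and bedtools 2.29.1 with build hg38; roles and settings, including any Tn5 offset, are not given in the sources used here. Per the file headers, each region's deposited signal is a mean normalized read count, on a scale not stated. A deposited log2 fold change and standard error follow. The deposited score divides the log2 fold change by that error, the deposited p-value is its normal two-sided p, and the deposited adjusted p equals Benjamini-Hochberg over 11185 regions. The other 114801 regions are listed at 1 and were treated as not tested.

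Medians, counts and classes were computed with pandas 2.3.3, and adjusted p-values were recomputed from the deposited values only for the alternatives (centring, adjustment over every region). The code was tested on simulated data. RefSeq (GRCh38.p14) gave genes and, for 540 of 617 protein-coding genes of chromosome 15, strand and promoter sequence. Starts in the table count from 0, and 1 was added. Each region went to the shortest protein-coding gene it overlaps, or else to the nearest. Levels by group were implied from each mean and fold change, taking the mean as the average of both groups. Chromosome 15, the gene lists and the alternatives were chosen with earlier results of these data known. Named regions are the called ones, the 6 highest and 6 lowest tested fold changes with at least median mean (1 per gene) and the strongest region of up to 3 genes per list; regions with an adjusted p from 0.05 to 0.1, MAP2K1 and other genes of the lists or with 10 or more regions were added after values were seen. One gene list and one gene are not reported here. No separate cultures are stated, so p-values may measure technical spread.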

Additional observations from a re-analysis of the deposited data

How the results depend on the processing

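The 2 called regions became 0 at an adjusted p of 0.01, with adjustment over every region, after centring on the tested median, or with a doubling also required, and 12 at an adjusted p of 0.1. Of 118 recomputed values, 79 stayed within a binomial order-statistic interval of the median, or within 1.5 times for counts and shares. The difference of 0.085 between chromosome 15 and the other autosomes was 0.068 in tested regions and 0.057 without the 4 highest windows, added later, and leaving out 1 window at a time gave 0.077 to 0.091. Against single autosomes, where the choice of chromosome 15 fixed the sign, it was 0.059 (chromosome 1), 0.15 (4), 0.053 (10), 0.11 (11), 0.061 (13), 0.12 (16), 0.069 (17), 0.15 (18) and 0.055 (20). The share of windows above the autosomal median was 80.5% to 100% with windows of 2 or 10 Mb, shifted windows or tested regions. Tested regions filled only 7 windows, all above it, against 59.2% elsewhere. In steps of 1 Mb the share was 76.9%.

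Tested regions, added later for these classes, gave gaps of 0.19 up to 10 kb from genes, -0.075 at 10 to 50 kb, 0.0075 at 50 to 200 kb and 0.033 beyond 200 kb. At or above the median mean, the last gap was 0.027 and that at 10 to 50 kb 0.019. The cause was not tested. The last 5 Mb lay 0.065 above the rest, and 0.12 in tested regions; the last 2 Mb lay 0.11 and the last 10 Mb 0.014 above it.

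Among the lists, tested regions had medians of 0.39 (imprinted), 0.22 (pigment), 0.76 (retinoid, 1 region) and 0.20 (translation). The strongest region per gene gave 0.22 (pigment), 0.23 (growth), 0.29 (neuronal) and 0.065 (translation). Centring on the autosomal median, which by construction lowers each value, left 0.27 (imprinted), 0.15 (pigment), 0.081 (growth), 0.17 (lipid), -0.014 (retinoid), 0.019 (transcription factors), 0.15 (neuronal), 0.066 (translation) and 0.18 (matrix).

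No paired analysis was possible because each deposited value was fitted over all libraries together, and for that reason no replicate was left out.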
